A study of Mus musculus with 8 samples.

Results

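The 10 genes described here are the core of the transforming growth factor beta (TGF-β) pathway as it was read in CD11b+ brain cells: the ligands *Tgfb1* and *Tgfb2*, the latent ligand tether *Lrrc33*, the receptors *Tgfbr1* and *Tgfbr2*, the signal carriers *Smad2*, *Smad3* and *Smad4*, and the inhibitors *Smad7* and *Ski*. They were chosen by name and not by a threshold on any measured value, though with earlier results of these data known. All 10 of 10 were found among the 20308 gene symbols of the count files, *Lrrc33* under its later symbol *Nrros*, and all 10 passed the filter on low counts. It is called *Nrros* below, as in the files.

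RNA was sequenced from 4 control and 4 CSF1 OE mice, 1 library per mouse. All mice were F1 animals of C57Bl/6 and CD1 aged 14 or 15 days, and all cells were pulled from the right brain hemisphere with magnetic beads against CD11b after myelin removal. CSF1 OE mice carry a TRE/tTA transgene for the secreted form of the cytokine CSF1 that is active in a subset of GFAP+ cells, which the CD11b pull-down does not select. GFAP is a marker of astrocytes. The labels of the controls name no allele. *Csf1* RNA ran from 139 to 364 CPM in control and from 167 to 400.1 CPM in CSF1 OE mice (CPM is the count scaled to a fixed size of the normalized library), and since these ranges overlapped it gave no check of the labels.

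CD11b is found on microglia and other myeloid cells, and 10 of 10 microglia markers were among the genes tested, with a summed level from 22180 to 39760 CPM. RNA of other cell types was present in every library, and no marker found in the files was at 0 in all of them. Control mouse 1934 had the lowest microglia sum (22180 CPM, against 28580 to 39760 CPM in the other 7 mice) and the highest sums for endothelial cells, oligodendrocytes and neurons, at 1848, 6237 and 463 CPM. CSF1 OE mouse 2019 had the highest microglia sum and the lowest sums of these 3 types, at 524, 1629 and 61.4 CPM. Total counts ran from 12053280 to 15475488.

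TGF-β is secreted in a latent complex and is held on the surface of microglia by the protein of *Nrros*, from which integrins with the alpha-v chain release it. The free ligand binds the receptor encoded by *Tgfbr2*, which activates that of *Tgfbr1*, and the latter phosphorylates the proteins of *Smad2* and *Smad3*. These join that of *Smad4* and enter the nucleus. There *Ski* represses their targets, while *Smad7* is itself a target and blocks the receptors as negative feedback. In the brain the pathway is known for keeping microglia in their homeostatic state.

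Promoters were read for *Tgfb2*, the member whose level correlated negatively with the microglia markers over the mice, and for both receptors, whose levels correlated positively with them. The sequences are from RefSeq on GRCm38.p6, each from 250 bases before to 50 bases after an annotated start, written from 5′ to 3′ on the strand of the gene. From the table used, promoters of 7 of the 10 genes were searched, and the others were left out of the search. Capitals mark 3 motifs searched on both strands: GAGGAA, the core bound by the myeloid factor PU.1 and its relatives, TATAAA, the TATA box, and CAGAC, the core bound by SMAD proteins. A GAGGAA match on the other strand reads TTCCTC. None of the marked matches overlap.
*Tgfb2*, chr1:186705940-186706239, minus strand: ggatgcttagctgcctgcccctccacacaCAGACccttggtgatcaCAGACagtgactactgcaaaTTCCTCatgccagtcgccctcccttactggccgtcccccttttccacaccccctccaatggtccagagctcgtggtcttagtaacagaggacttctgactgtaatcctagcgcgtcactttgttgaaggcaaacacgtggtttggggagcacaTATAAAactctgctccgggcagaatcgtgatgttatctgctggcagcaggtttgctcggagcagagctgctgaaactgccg
*Tgfbr1*, chr4:47352972-47353271, plus strand: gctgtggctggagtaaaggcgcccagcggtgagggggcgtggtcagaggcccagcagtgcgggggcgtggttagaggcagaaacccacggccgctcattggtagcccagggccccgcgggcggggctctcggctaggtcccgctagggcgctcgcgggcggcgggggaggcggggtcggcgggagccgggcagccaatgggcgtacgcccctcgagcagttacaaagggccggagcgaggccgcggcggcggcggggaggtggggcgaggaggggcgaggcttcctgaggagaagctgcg
*Tgfbr2*, chr9:116175314-116175613, minus strand: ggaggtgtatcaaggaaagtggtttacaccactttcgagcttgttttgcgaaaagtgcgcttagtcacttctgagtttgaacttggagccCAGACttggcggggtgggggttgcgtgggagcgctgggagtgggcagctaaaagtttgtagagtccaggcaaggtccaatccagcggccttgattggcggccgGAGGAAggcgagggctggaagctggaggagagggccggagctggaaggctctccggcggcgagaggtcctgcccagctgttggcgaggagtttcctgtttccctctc

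The *Tgfb2* promoter held TATAAA from 31 to 26 bases before the start, along with 1 GAGGAA and 2 CAGAC matches. *Tgfbr2* had 1 GAGGAA and 1 CAGAC match and no TATAAA, and the upstream promoter of *Tgfbr1* had none of the 3. A second annotated start of *Tgfbr1* had 1 GAGGAA and 1 CAGAC match. Of the 32851 promoters in the table, 13.6% held TATAAA, 28.3% GAGGAA and 49.6% CAGAC. The matches describe these letters alone.

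No difference between the genotypes was detected for any of the 10 genes in the fit of genotype alone, and 1, *Tgfb2*, was called lower in a fit that also set animal numbers 1931 to 1936 against the others, which called 9.50% of all genes. With edgeR's quasi-likelihood test, 0 of 10 were called (p below 0.05 after Benjamini-Hochberg adjustment, with a log2 fold change below -0.51 or above 0.52), where 0.440% of the 13407 genes tested were. Without a fold threshold 0 of 10 passed as well, where 0.507% of all genes did. An unadjusted p under 0.05 was reached by 0 of 10 in this fit, against 16.5% of all genes, and by 0 of 10 with DESeq2 and limma. With the animal number term it was reached by 3 of 10. It was reached by 2 each with the endothelial covariate, with the microglia covariate and without both control 1934 and CSF1 OE 2019. Without control 1874 it was reached by 1. The share of all genes with such a p was not counted in these alternative fits. The lowest adjusted p was 0.409 (edgeR), for *Smad7*. In 0 of 10 did the values of the genotypes stand apart, where they did in 10.3% of all genes. The fitted log2 fold change of CSF1 OE against control was above 0 in 3 genes and below 0 in 7, where 44.8% of all genes were above 0, and its median was -0.015 beside -0.034 for all genes. Members called were also 0 with DESeq2 and limma, which called 3.07% and 0.776% of all genes, with the microglia markers as a covariate (2.46%) and without both control 1934 and CSF1 OE 2019 (1.24%). With control 1827, 1872, 1874 or 1934 left out 0 were called as well, where 1.21%, 0.0221%, 0.0221% and 0.0743% of all genes were, and likewise with CSF1 OE 1931, 1932 or 1936 left out (0.0294%, 0.133% and 0.0593%).

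How closely a difference was bounded varied from gene to gene. In 5 of 10, *Tgfbr1*, *Tgfbr2*, *Smad2*, *Smad3* and *Smad4*, the 95% interval of the fold change lay wholly within these fold thresholds, as it did in 44.4% of all genes tested. The number of members with such an interval was 3 with the endothelial covariate, 4 with the animal number term and 7 without control 1934. For the other 5, *Tgfb1*, *Tgfb2*, *Nrros*, *Smad7* and *Ski*, a change past a threshold in at least 1 direction was not bounded by these 8 mice.

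**Figure D1:**
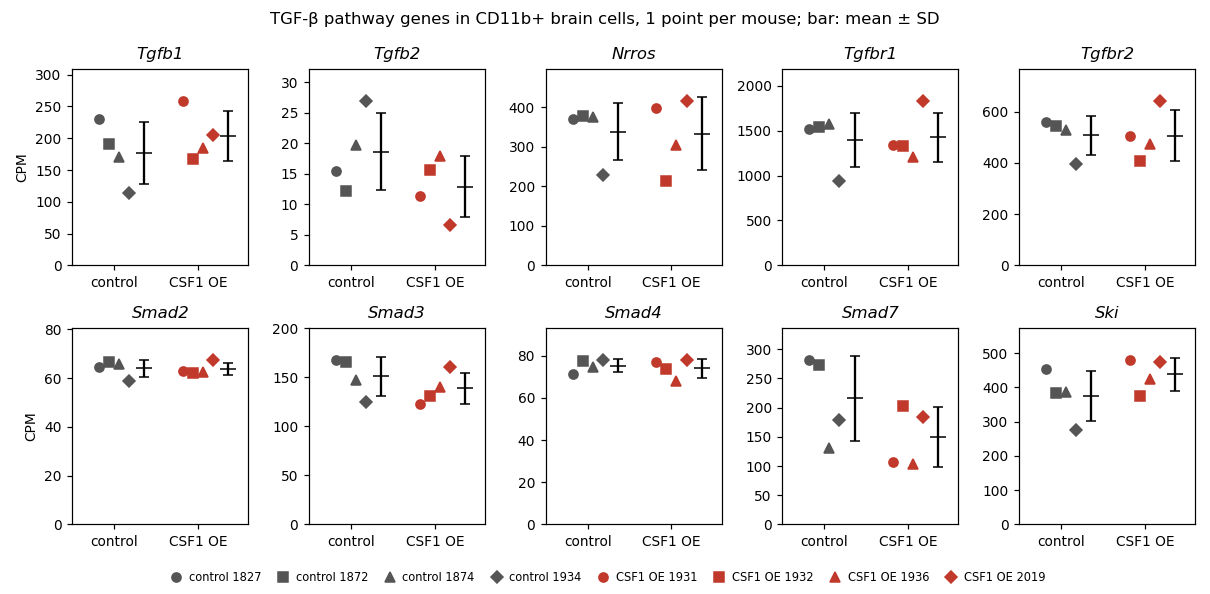
Level in CPM (vertical axes, from 0) of the 10 TGF-β pathway genes in each of 4 control (grey) and 4 CSF1 OE (red) mice, with the mean ± SD of each genotype as a black bar. The genotypes overlap in every panel, and control mouse 1934 (grey diamond) is the lowest control in *Tgfb1*, *Nrros*, *Tgfbr1* and *Tgfbr2* and the highest in *Tgfb2*.

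Among the ligands, *Tgfb1* (chromosome 7, 25687002 to 25705077 on GRCm38) encodes the form that microglia make and depend on. It had 231, 191, 170 and 114 CPM in control mice 1827, 1872, 1874 and 1934. In CSF1 OE mice 1931, 1932, 1936 and 2019 it had 258, 167, 185 and 205 CPM. Only the value of control 1934 lay below all CSF1 OE values, and only that of CSF1 OE 1931 lay above all controls. The means were 176.5 ± 48.6 and 204 ± 39.5 CPM (SD, n = 4 each), and the log2 fold change was 0.21 (SE, standard error, 0.21, 95% interval from -0.28 to 0.69, adjusted p = 0.659 from edgeR).

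*Tgfb2* (chromosome 1, 186622792 to 186705989) encodes a ligand made by many cells other than microglia. Its levels in the controls, in the same order, were 15.5, 12.2, 19.7 and 26.9 CPM, and in CSF1 OE mice 11.4, 15.6, 18.0 and 6.64 CPM. The highest value was that of control 1934 and the lowest that of CSF1 OE 2019, the mice with the most and the least endothelial RNA. Means of 18.6 ± 6.31 and 12.9 ± 4.98 CPM gave a log2 fold change of -0.52 (SE 0.33, 95% interval from -1.26 to 0.22, adjusted p = 0.456 from edgeR). With both of these mice left out it was -0.069 (adjusted p = 0.893 from edgeR). As they held the highest control and the lowest CSF1 OE value, leaving them out raises it by construction. With the mean log2 CPM of the endothelial markers as a covariate, the log2 fold change was 0.22 (adjusted p = 0.493 from edgeR). With a term setting animal numbers 1931 to 1936 (1 control and 3 CSF1 OE mice) against the others, *Tgfb2* was called lower (log2 fold change -1.02, adjusted p = 0.0305 from edgeR). Its alternatives spanned adjusted p values from 0.0305 to 0.893. That fit called 9.50% of all genes.

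*Nrros* (chromosome 16, 32142785 to 32165594), the tether of latent TGF-β1, had 371, 377, 374.5 and 229.5 CPM in the controls. In CSF1 OE mice it had 398, 214, 304.5 and 415 CPM. The other 3 controls lay close together above 1934, while the CSF1 OE values were spread both above and below all controls. The means were 338 ± 72.3 and 333 ± 92.8 CPM, with a log2 fold change of -0.022 (SE 0.23, 95% interval from -0.55 to 0.50, adjusted p = 0.966 from edgeR).

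The type I receptor *Tgfbr1* (chromosome 4, 47353222 to 47414931) was the most abundant of the 10 genes. It had 1516, 1545, 1574 and 939.8 CPM in control and 1337, 1326, 1205 and 1826 CPM in CSF1 OE mice. The extremes on both sides were the mice with the lowest and the highest microglia sum, control 1934 and CSF1 OE 2019. Its log2 fold change was 0.030 (SE 0.20, 95% interval from -0.42 to 0.48, adjusted p = 0.948 from edgeR). Without both mice it was -0.25 (adjusted p = 0.231 from edgeR, where its alternatives spanned 0.0642 to 0.981), with all 3 remaining CSF1 OE values below all 3 control values. These mice were left out after seeing the data. As they held the lowest control and the highest CSF1 OE value, leaving them out lowers the fold change by construction.

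The type II receptor *Tgfbr2* (chromosome 9, 116084293 to 116175360), which binds the ligand first, was likewise lowest in control 1934 and highest in CSF1 OE 2019, at 560, 546, 529.5 and 395 CPM in control and 506, 407, 473 and 640.4 CPM in CSF1 OE mice. Means of 507 ± 76.0 and 507 ± 98.2 CPM left a log2 fold change of -0.0022 (SE 0.16, 95% interval from -0.37 to 0.37, adjusted p = 0.995 from edgeR). In percent, the interval of the difference ran from -22.65% to 28.9%. For both receptors it lay inside the fold thresholds in this fit. With the endothelial covariate the log2 fold change was -0.31 (SE 0.19) for *Tgfbr1* and -0.30 (SE 0.15) for *Tgfbr2*, and with the animal number term 0.35 (SE 0.11) and 0.23 (SE 0.10).

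*Smad2* and *Smad4* varied least. *Smad2* (chromosome 18, 76241580 to 76310963), a carrier that the receptor phosphorylates, stayed between 59.0 and 66.5 CPM in control and between 61.9 and 67.3 CPM in CSF1 OE mice. Its log2 fold change was -0.0083 (SE 0.070, 95% interval from -0.17 to 0.15, adjusted p = 0.959 from edgeR), and in percent the interval ran from -10.9% to 10.9%. *Smad4* (chromosome 18, 73639009 to 73703780), the partner shared by all SMAD signals, stayed between 71.4 and 77.8 CPM in control and between 67.8 and 77.8 CPM in CSF1 OE mice, with a log2 fold change of -0.025 (95% interval from -0.19 to 0.14, adjusted p = 0.879 from edgeR). Coefficients of variation within a genotype were 5.375% and 3.85% for *Smad2* and 3.99% and 6.12% for *Smad4*, control first.

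*Smad3* (chromosome 9, 63646767 to 63757994), the other carrier downstream of the receptor, had 167, 166, 147 and 124.5 CPM in control and 123, 130.3, 140.3 and 160.2 CPM in CSF1 OE mice. The top 2 values were controls and the lowest was CSF1 OE 1931, with the rest intermixed. Its log2 fold change was -0.13 (SE 0.12, 95% interval from -0.40 to 0.14, adjusted p = 0.628 from edgeR). Without control 1934 and CSF1 OE 2019 it was -0.28, the lowest p of the 10 genes in that fit, with an adjusted p of 0.132 from edgeR. As these mice held the lowest control and the highest CSF1 OE value, leaving them out lowers the fold change by construction.

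Of the inhibitors, *Smad7* (chromosome 18, 75367529 to 75395935) had the widest spread. It had 281, 272, 132 and 179 CPM in control and 106, 203, 104 and 185 CPM in CSF1 OE mice. Within both genotypes 2 mice were high and 2 low, and the CSF1 OE mice with high values overlapped the controls. Means of 216 ± 72.7 and 149.5 ± 51.5 CPM gave the lowest log2 fold change of the 10, -0.53 (SE 0.30, 95% interval from -1.21 to 0.15, adjusted p = 0.409 from edgeR). It was negative in every alternative fit, from -0.96 to -0.34, with adjusted p from 0.138 to 0.685, all from edgeR, DESeq2 or limma.

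*Ski* (chromosome 4, 155154075 to 155222592), a corepressor of SMAD complexes, had 454, 383, 386 and 276.5 CPM in control and 478.5, 374, 425 and 473 CPM in CSF1 OE mice. Its log2 fold change of 0.22 was the highest among the 10 (SE 0.15, 95% interval from -0.13 to 0.57, adjusted p = 0.502 from edgeR) and was above 0 in every alternative fit, from 0.017 to 0.42. The lowest value was again that of control 1934, without which the log2 fold change was 0.11.

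**Figure D2:**
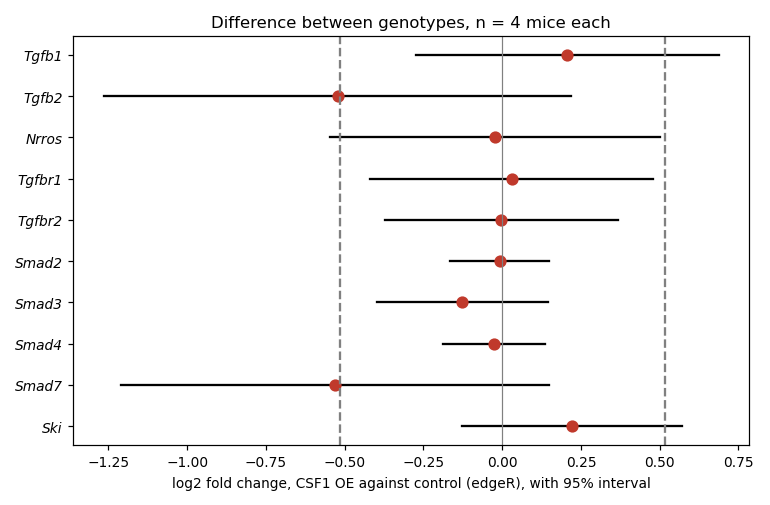
Log2 fold change of CSF1 OE against control from edgeR (horizontal axis, n = 4 mice each) for each of the 10 genes, as a point with its 95% interval, and the fold thresholds, -0.51 and 0.52 on this scale, as dashed lines. All 10 intervals include 0, and those of *Smad2* and *Smad4* are the narrowest.

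Levels of different genes were compared as CPM per kilobase, with the length of the union of a gene's exons in GENCODE M21. *Tgfbr1* came first, with a median of 218 CPM per kilobase over the 8 mice (range 144 to 279.5), and stood above 98.9% of the 12792 tested genes with a length. *Nrros* at 89.2, *Ski* at 72.9, *Tgfbr2* at 63.25, *Smad7* at 40.3, *Tgfb1* at 37.3 and *Smad3* at 25.95 CPM per kilobase followed, each overlapping the range of the next. *Smad4* at 20.4, *Smad2* at 7.27 and *Tgfb2* at 2.685 CPM per kilobase came last, and the ranges of these 3 overlapped neither each other nor that of *Smad3*. *Tgfbr1* likewise stood clear of *Nrros*. *Nrros* stood above 96.5% and *Tgfbr2* above 95.3% of these genes, and *Tgfb2* above 33.1%.

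**Figure D3:**
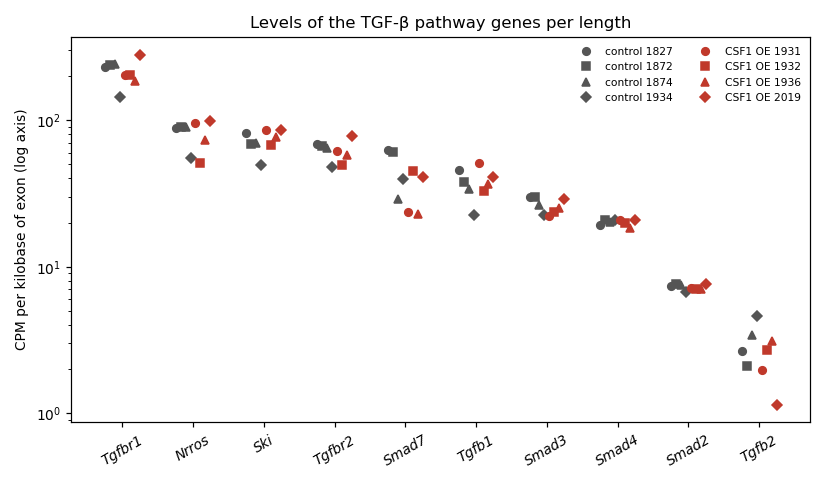
Level per length of the 10 genes in each of the 8 mice (vertical axis, CPM per kilobase of exon, log scale), in order of the median. *Tgfbr1* lies above every other gene in all mice, from 144 to 279.5, and *Tgfb2* below, from 1.15 to 4.64.

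Ratios within a library do not depend on its size. The log2 ratio of *Tgfb1* to *Tgfb2* counts was 3.26 ± 0.875 in control and 4.06 ± 0.792 in CSF1 OE mice, a difference of 0.79 (two-sided exact permutation test, p = 0.257, adjusted p = 0.343 over 4 ratios, n = 4 each). That of *Tgfbr1* to *Tgfbr2* was 1.44 ± 0.138 and 1.49 ± 0.156 (difference 0.051, exact permutation p = 0.657, adjusted p = 0.657). The ratio of *Smad3* to *Smad2* differed by -0.12 and that of *Smad7* to *Smad3* by -0.41 (exact permutation p = 0.257 and 0.229, adjusted p = 0.343 for both). In all 4 the genotypes overlapped, and 4 mice against 4 allow no p below 0.0286.

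Of the 10 genes, 7 had a Pearson correlation of 0.73 or more with the microglia markers. The 2 of the widest spread, *Tgfb2* and *Smad7*, were not among them. As a description over the 8 mice, which share a common scale and whose libraries sum to a fixed total, the Pearson correlation of log2 CPM with the mean of the microglia markers was 0.95 for *Tgfbr1*, 0.93 for *Smad2*, 0.90 for *Tgfbr2*, 0.84 for *Smad3*, 0.77 for *Nrros*, 0.76 for *Ski* and 0.73 for *Tgfb1*. It was 0.39 for *Smad7*, where the Spearman correlation was 0.55 as for *Ski*, and 0.014 for *Smad4*. *Tgfb2* alone among the 10 had a negative value, -0.75, and correlated at 0.95 with the endothelial markers. It also correlated at 0.89 with the astrocyte markers and at 0.73 with the neuron markers. In bulk RNA, fewer cells of a type and less RNA per cell cannot be told apart, and the part of cell makeup in these values was not tested.

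Relative to the summed microglia markers, *Tgfbr1* had the narrowest range of the 10. It came to 3.975%, 4.00%, 4.68% and 4.24% of the marker sum in control and 4.17%, 4.58%, 4.22% and 4.59% in CSF1 OE mice, a spread of 1.18-fold between the highest and the lowest mouse where CPM per kilobase spread 1.94-fold. Control 1934 lay among the other mice on this scale. The range was also narrower on this scale than as CPM per kilobase for *Tgfbr2* (1.27-fold against 1.62-fold) and *Nrros* (1.68-fold against 1.94-fold). So it was for *Ski* (1.5-fold against 1.73-fold), *Tgfb1* (1.62-fold against 2.26-fold) and *Smad7* (2.44-fold against 2.69-fold). It was wider for *Smad4*, 1.87-fold against 1.15-fold, *Smad2*, 1.57-fold against 1.14-fold, and *Smad3*, 1.46-fold against 1.36-fold. *Tgfbr2* ranged from 1.41% to 1.78% in control and from 1.41% to 1.65% in CSF1 OE mice, while *Tgfb2* spread 7.25-fold against 4.04-fold, from 0.0167% to 0.121%. *Tgfb1* made up 0.495% to 0.605% in control and 0.516% to 0.805% in CSF1 OE mice, and *Ski* 0.993% to 1.25% and 1.19% to 1.49%, with overlap in both.

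**Figure D4:**
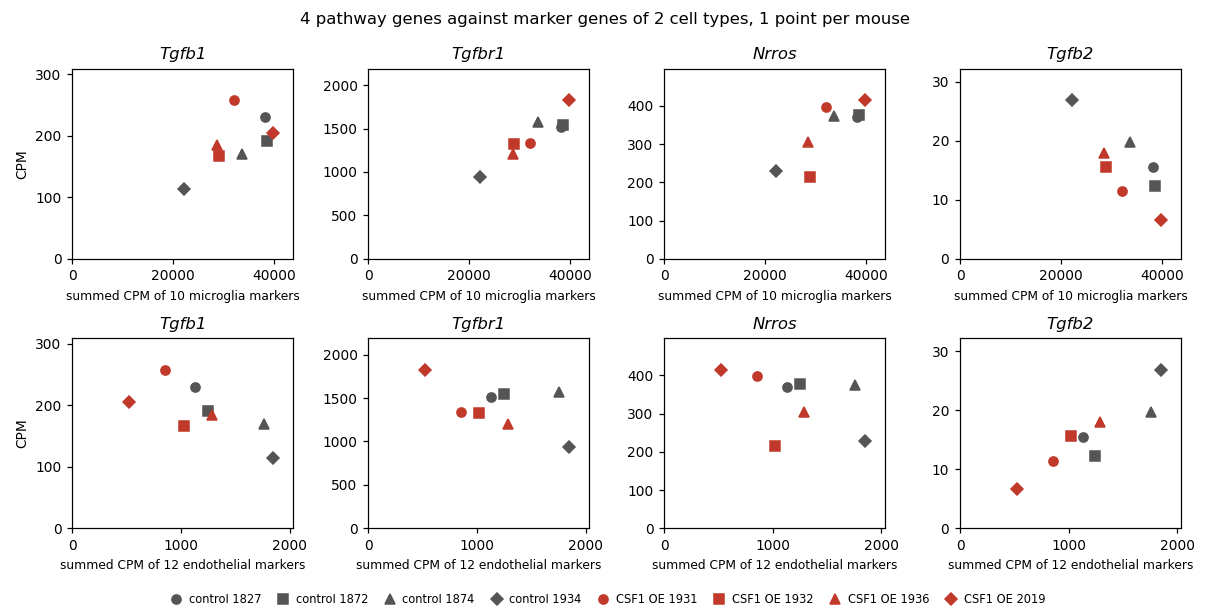
Level in CPM (vertical axes) of *Tgfb1*, *Tgfbr1*, *Nrros* and *Tgfb2* against the summed CPM of 10 microglia markers (top row) and of 12 endothelial markers (bottom row), 1 point per mouse. *Tgfbr1* rises with the microglia sum, from 939.8 CPM in control 1934 to 1826 CPM in CSF1 OE 2019, and *Tgfb2* rises with the endothelial sum, from 6.64 to 26.9 CPM between the same mice.

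The genes whose log2 CPM ran closest to a member over the 8 mice were named as a description. They were picked as the highest Pearson correlations among all genes tested, so high values follow from the choice. For *Tgfb2* these were *Flt4* (Pearson correlation 0.99, Spearman 0.98), *Kdr* (0.99 and 0.98) and *Ablim1* (0.99 and 1). Of these, *Flt4* and *Kdr* encode receptors for vascular endothelial growth factors. For *Tgfbr2* they were *Ss18*, *Rnase4* and *Pik3cg* (Pearson 0.99, 0.99 and 0.98), for *Tgfbr1* *Cdk13*, *Rab39* and *Aqr* (0.98 each) and for *Tgfb1* *U2af2*, *Alox5ap* and *Larp1* (0.99, 0.99 and 0.99).

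Around the 10 genes, 43 further symbols of the pathway were listed, of which 41 were tested. With edgeR 0 of 41 were called, beside 0.440% of all genes. Before adjustment, p fell below 0.05 in 3 genes that were higher, as in 10.1% of all genes, and in 5 that were lower, as in 6.44%. The genotypes stood apart in 1 gene that was higher and in 4 that were lower, where 6.84% and 3.45% of all genes did. The median log2 fold change was -0.086.

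Among ligands, latency and activation genes (13 tested, median -0.26), the lowest log2 fold change was that of *Ltbp4*, which encodes a binding protein for latent TGF-β. It had 143, 233, 250.3 and 150.2 CPM in control and 104, 96.7, 111.5 and 72.3 CPM in CSF1 OE mice. Every CSF1 OE value lay below every control value. Its log2 fold change was -1.01 (SE 0.21, adjusted p = 0.0681 from edgeR), short of a call. It was called by DESeq2, with the animal number term, with the microglia markers as a covariate and without control 1827, and over all alternatives its adjusted p ran from 0.000511 to 0.212 and its log2 fold change from -1.13 to -0.77. The highest, of *Ltbp2*, rested on 3 to 30 counts per library (log2 fold change 0.42, adjusted p = 0.782 from edgeR).

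*Bmp1*, a protease of the extracellular matrix that also acts on latent binding proteins, and *Ltbp3* likewise stood lower without overlap, at -0.40 and -0.48 on the log2 scale (adjusted p = 0.1395 and 0.3116 from edgeR). They were named after their values were seen. The sum of the endothelial markers lay between 1130 and 1848 CPM in control and between 524 and 1285 CPM in CSF1 OE mice, with overlap. Of these markers 12 of 12 had a log2 fold change below 0, where 44.8% of all genes were above 0. None were called, where 0.440% of all genes were. With the endothelial covariate *Ltbp4* had a log2 fold change of -0.77, *Ltbp3* of -0.088 and *Bmp1* of -0.55 (adjusted p = 0.0755 from edgeR for *Bmp1*). *Ltbp3* was called lower with the animal number term (-0.83, adjusted p = 0.0261 from edgeR) and was at -0.28 without CSF1 OE 2019.

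Among the other receptors (6 tested, median -0.22), all 6 had a log2 fold change below 0, where 44.8% of all genes were above 0. The lowest was that of *Tgfbr3*, a co-receptor for TGF-β2, at -0.41 (adjusted p = 0.572 from edgeR), but it turned to 0.38 with the endothelial covariate and was called lower with the animal number term (-0.95, adjusted p = 0.0283 from edgeR). Without control 1934 it was -0.15 and without CSF1 OE 2019 -0.18. The highest was that of *Tgfbrap1*, at -0.064. *Eng*, a co-receptor, was named after its values were seen. It had 213, 225.5, 220.5 and 189 CPM in control mice. In CSF1 OE mice it had 164, 152, 173 and 153.5 CPM, without overlap. Its log2 fold change was -0.40 (SE 0.085, adjusted p = 0.0689 from edgeR). Over the alternatives it ran from -0.44 to -0.36, short of the fold threshold in each, with adjusted p from 9.938e-05 to 0.2265. With the endothelial covariate it was -0.39 (adjusted p = 0.103 from edgeR).

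SMAD partners (9 tested, median -0.077) had their extremes in *Hipk2*, a kinase, at 0.26 (adjusted p = 0.167 from edgeR) and the endosomal adaptor gene *Zfyve16* at -0.29 (adjusted p = 0.238 from edgeR). *Hipk2* stood higher in CSF1 OE mice without overlap, at 81.9 to 94.5 CPM against 68.4 to 80.8 CPM. Inhibitors (13 tested, median -0.0041) ranged from *Bambi*, a decoy receptor, at -0.45 (adjusted p = 0.332 from edgeR) to *Tgif1*, a corepressor of SMADs, at 0.56 (adjusted p = 0.289 from edgeR). *Tgif1* had 114, 149.5, 152 and 93.3 CPM in control and 231, 108.5, 205 and 208 CPM in CSF1 OE mice, so that 3 of 4 CSF1 OE mice lay above every control and 1932 did not.

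**Figure D5:**
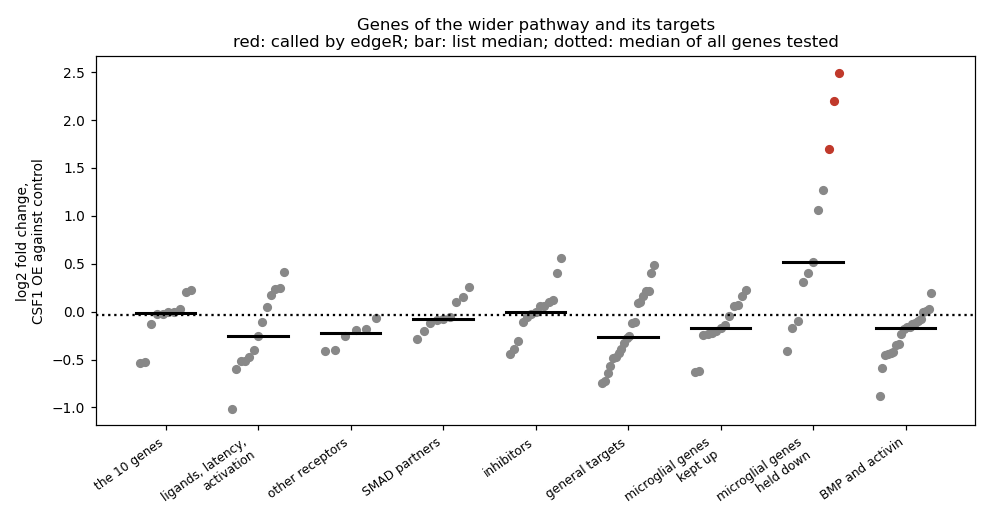
Log2 fold change of CSF1 OE against control from edgeR (vertical axis) for each gene tested in the 10 core genes and 8 further lists, with list medians as bars, called genes in red and the median of all genes tested as a dotted line. Called genes appear in 1 list, the microglial genes known to be held down by TGF-β, with 3 of 11. That list was chosen with results of these data known.

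Of 21 symbols of general TGF-β target genes, 20 were tested (the other is a later name of *Ctgf*). With edgeR 0 of the 20 were called, where 0.440% of all genes were, and their median was -0.26. The list shares 4 genes with those above. An unadjusted p under 0.05 was found in 1 gene that was higher and 2 that were lower, as in 10.1% and 6.44% of all genes. With the animal number term 8 of the 20 were called, where 9.50% of all genes were. The extremes were *Klf10*, an early response gene of the pathway, at 0.49 (adjusted p = 0.366 from edgeR) and *Ctgf*, a matrix protein gene, at -0.745 (adjusted p = 0.395 from edgeR), the latter turning to 0.15 with the endothelial covariate and called lower with the animal number term (-1.34, adjusted p = 0.0432 from edgeR). *Ctgf* was at -0.48 without CSF1 OE 2019. Of 25 symbols of the BMP and activin branch, which uses other ligands and partly other SMADs, 20 were tested. Of these 20, 0 were called, where 0.440% of all genes were, and 17 had a log2 fold change below 0. Of all genes, 44.8% were above 0. The median of the branch was -0.17. *Bmp2* had the lowest log2 fold change, at -0.88 (adjusted p = 0.262 from edgeR), and *Id4* the highest, at 0.20 (adjusted p = 0.7855 from edgeR). Without CSF1 OE 1932, which had 39.4 CPM of *Bmp2* where the other CSF1 OE mice had 11.9 to 16.8 CPM, *Bmp2* was at -1.39 (adjusted p = 0.0548 from edgeR).

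The last 2 lists held microglial genes known to depend on the pathway, kept up or held down by it. Of 13 genes that TGF-β keeps up, 13 were tested and 0 called, where 0.440% of all genes were. Their median was -0.17. Of these, 7 are also microglia markers above. *Siglech* had the highest log2 fold change, at 0.23 (adjusted p = 0.5535 from edgeR), and *Fcrls* the lowest, from 3247 ± 818 to 2104 ± 144 CPM, which is -0.63 as log2 fold change (SE 0.19, adjusted p = 0.168 from edgeR). *Fcrls* was called lower by DESeq2, with the microglia covariate and without both control 1934 and CSF1 OE 2019. It is itself among the 10 markers averaged in that covariate. The values of *Fcrls* overlapped only through control 1934.

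Of 12 genes that TGF-β holds down, 11 were tested, 3 were called higher and 0 lower, where 0.388% and 0.0522% of all genes were, and the median was 0.52. The list was chosen with results of these data known, and 1 of its genes, *Ms4a7*, is also a border macrophage marker. Of those markers 10 of 10 had a log2 fold change below 0, where 44.8% of all genes were above 0.

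*Axl*, a receptor for dying cells, had 29.0, 27.6, 24.4 and 27.1 CPM in control and 142, 128, 141 and 85.6 CPM in CSF1 OE mice, with a log2 fold change of 2.20 (adjusted p = 0.0016 from edgeR). *Itgax*, the integrin chain CD11c, had 10.8, 12.1, 11.3 and 6.92 CPM in control and 51.4, 28.9, 28.5 and 24.5 CPM in CSF1 OE mice, with a log2 fold change of 1.70 (adjusted p = 0.0431 from edgeR). *Gpnmb*, a lysosomal membrane protein gene, had 18.1, 14.8, 12.4 and 10.5 CPM in control and 138.5, 45.1, 92.2 and 37.7 CPM in CSF1 OE mice, with a log2 fold change of 2.49 (adjusted p = 0.0492 from edgeR). In all 3 every CSF1 OE value lay above every control value. The genotypes stood apart in 7 of the 11 genes tested, all higher, where 6.84% of all genes did. Since the list was chosen with results of these data known, these shares do not test it. The log2 fold change was below 0 in 3 of the 11, *Ms4a7* at -0.41, *Ch25h* at -0.18 and *Cybb* at -0.095. The number called ran from 1 to 3 with each mouse left out, was 6 with DESeq2, and was 1, *Axl*, with upper-quartile factors and with the endothelial covariate. *Gpnmb* and *Itgax* were each called in 9 of 17 alternative fits, and *Axl* in 17 of 17.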

How the data were processed

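The members and the gene lists were chosen with earlier results of these data known. Reads were aligned by the authors with Bowtie 1.0.0, and the deposited expected counts were made per gene with RSEM 1.2.7, without normalization (build mm10 per the labels; annotation not given in the sources used here). A second deposited table holds a signal, the same counts divided by 1 size factor per mouse. Libraries were assigned by the animal number and genotype code in their labels, and 0 columns were unmapped; p-values measure the spread between these mice.

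Expected counts were rounded and fitted over all genes in R 4.3.3 with edgeR 4.0.16 (TMM, filterByExpr, glmQLFit, glmQLFTest), with limma 3.58.1 on log2 of the normalized values plus 1 and DESeq2 1.42.0 as alternatives. Standard errors are the log2 fold change over the root of the F statistic, and intervals use its degrees of freedom. Log2 CPM used a prior count of 2. EBSeq, used in the study, was not run. A floor of 3 counts was 0.177 to 0.266 CPM, for counting error only. Other alternatives were upper-quartile factors, no filter, at least 10 counts in every library, a term for animal numbers 1931 to 1936 (1 control, 3 CSF1 OE), an endothelial covariate, each mouse left out, and calls with no fold threshold. A microglia covariate and leaving out 2 mice were chosen after seeing the data. Named from each list were the called genes, otherwise the largest rise and fall, and for 4 members the 3 genes most alike. The methods were tested on simulated data with a 2-fold change in 200 genes and no difference in cell makeup between mice. Smaller changes were not simulated.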

Additional observations from a re-analysis of the deposited data

Results flagged for a closer look

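In control mice, *Tgfbr1* and *Nrros* each had 1 mouse far from the others of its group, control 1934 in both and on the low side. *Tgfbr1* was 939.8 CPM there against 1516 to 1574 CPM in the other 3 controls, a gap of 0.908 of the range of the group. *Nrros* was 229.5 CPM against 371 to 377 CPM, a gap of 0.958 of the range. Of 40 groups tested, 2 passed Dixon's 95% limit for 4 samples, and chance alone passes about 1 group in 20. Control 1934 also had the lowest sum of microglia markers, and its part in these values was not tested.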

How the results depend on the processing

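No paired analysis was possible because the labels give each mouse its own number. Of the 10 core genes 0 were called in 17 of 18 alternatives, and 1, *Tgfb2*, with the term for animal numbers. All genes called were 411 with DESeq2 (3.07% of those tested), 19 with upper-quartile factors (0.142%) and 104 with limma (0.776%). They were 1273 with the animal number term (9.50%), 112 with the endothelial covariate (0.835%) and 330 with the microglia covariate (2.46%). Without both control 1934 and CSF1 OE 2019 they were 166 (1.24%), and with 1 mouse left out 3 to 164 (0.0221% to 1.21%). The main count was 59 (0.440%). Of 41 wider pathway genes tested in the main fit, 1 was called with DESeq2 and 1 with the microglia covariate. With animal numbers 5 were called, and 0 to 1 with a mouse left out. Of 20 general targets 8 were called with animal numbers and 1 with the microglia covariate. Of 13 genes kept up 1 was called with DESeq2, 1 with the microglia covariate and 1 without both mice. Of 11 genes held down 6 were called with DESeq2, 1 with upper-quartile factors and 5 with animal numbers. The endothelial covariate gave 1 of them, the microglia covariate 6 and a mouse left out 1 to 3. Of 20 genes of the BMP and activin branch 1 was called with animal numbers and 1 with the endothelial covariate. With animal numbers 7 of the 10 core genes were higher, and 2 to 7 with a mouse left out, and their median was -0.19 with the endothelial covariate and -0.12 to 0.036 with a mouse left out. Log2 fold changes that turned with animal numbers were *Tgfbr2* 0.23, *Smad2* 0.058, *Smad3* 0.039, *Nrros* 0.28, *Ltbp2* -0.49, *Tgfbrap1* 0.11 and *Id4* -0.23. With the endothelial covariate they were *Tgfb1* -0.067, *Tgfb2* 0.22, *Tgfbr1* -0.31, *Siglech* -0.078, *Tgfbr3* 0.38 and *Ctgf* 0.15. Without both mice they were *Tgfbr1* -0.25, *Siglech* -0.023 and *Tgfbr3* 0.082, and with no filter *Tgfbr2* 0.0022. With 1 mouse left out they ranged from -0.11 to 0.11 for *Tgfbr1*, -0.13 to 0.091 for *Tgfbr2*, -0.035 to 0.012 for *Smad2*, -0.049 to 0.021 for *Smad4*, -0.15 to 0.14 for *Nrros*, -0.080 to 1.12 for *Ltbp2*, -0.16 to 0.0046 for *Tgfbrap1*, -0.11 to 0.40 for *Id4*, and -0.020 to 0.098 for the ratio of *Tgfbr1* to *Tgfbr2*. The cause was not tested.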
